A study of Rattus norvegicus with 6 samples.

Results

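The genes described here mark the neurons of the cerebellum, and they were taken as a readout of cerebellar tissue in each brain sample. Whether they measure how much cerebellar RNA a sample held was not tested. They are 10 genes measured by 11 probes, of 15168 named genes and 30367 probes on the array. All probes were kept whose transcript accession belonged to 1 of these genes, which gave 2 probes for Itpr1 and 1 for each of the others. They were selected on measured values, after the signals of Pcp2 and Car8 had been seen to stand apart on 1 array, so their signals and group differences are given as a description and support nothing by themselves.

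The samples were brain RNA of 3 male rats with the genotype SPORTS, a hyperactive mutant line, and of 3 male wild type rats. Both groups had a Wistar background, were 15 weeks old and were kept without exercise. The labels give neither the mutated gene of the line nor the part of the brain that was taken, and they mention no pooling of animals. Each rat had 1 single-colour Agilent array, so n counts rats, and precision is limited by how few arrays there are. Signals are given on a log2 scale on which 0 is the 75th percentile of an array's own signals, so 1 unit is a 2-fold change in signal. They compare arrays for the same probe and do not rank genes by abundance. A probe counts as measured on an array where over 0.5 of its spots were well above background. Pan-neuronal markers were read beside these genes, and they cannot identify Purkinje or granule cells in bulk RNA. Of these markers 5 of 6 were on the array and all 5 were tested.

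SPORTS replicate 1 stood apart from the other 5 arrays on these genes, and each difference below is therefore also given without it. It was highest of the 6 arrays for 9 of the 11 probes. Genes of the wider cerebellar lists described below had a median deviation of 0.12 on it from the other 5 arrays, against 0.92 over the 9 tested genes of the set. The number of measured probes on SPORTS replicate 1, 21636, lay within the range of the 6 arrays, 20325 to 23261. Wild type replicate 1 also stood apart, on the low side, with 319 tested probes over 1 log2 unit below the median of the other arrays, against 130 to 177 on each of the other 5. Without it the median difference of the marker genes was 0.41, against 0.46 with all arrays. All 6 arrays lay on 1 slide and had 1 scan time. Slide row 1 held wild type replicates 1 and 2, and row 2 held 4 arrays. Differences were therefore also fitted with row as a blocking term, called the row-blocked fit, in which they rest on wild type replicate 3 against the SPORTS arrays.

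In the cerebellar cortex, Purkinje cells are the large GABA-releasing output neurons, and granule cells are the small, very numerous glutamatergic neurons whose parallel fibres synapse on them. Climbing fibres and parallel fibres raise calcium in Purkinje cell dendrites, in part by release from internal stores through the inositol trisphosphate receptor encoded by Itpr1. The genes differ in how specific they are. Pcp2 is nearly confined to Purkinje cells in the rodent brain, whereas Itpr1, Calb1 and Neurod1 are also active in forebrain neurons.

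Upstream sequences are shown for genes that stood far apart on SPORTS replicate 1 and for Itpr1, which did not. They are the 250 bases before the RefSeq gene start on rat build GRCr8, 5′ to 3′ on the gene's strand, and 6 of the 10 genes had an entry. Capitals mark matches to CANNTG, the E-box that basic helix-loop-helix factors such as Neurod1 bind, and to AGGTCA, the core motif of nuclear receptors such as Rora, a receptor needed for Purkinje cell development in mouse. Both strands were searched, and no match overlapped another.
Pcp2, chr12:6481308-6481557, minus strand: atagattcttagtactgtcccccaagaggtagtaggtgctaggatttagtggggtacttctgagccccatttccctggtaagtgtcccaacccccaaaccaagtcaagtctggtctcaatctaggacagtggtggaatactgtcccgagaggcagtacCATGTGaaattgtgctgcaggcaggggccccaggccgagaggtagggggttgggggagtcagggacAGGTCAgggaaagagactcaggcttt
Ppp1r17, chr4:86543871-86544120, plus strand: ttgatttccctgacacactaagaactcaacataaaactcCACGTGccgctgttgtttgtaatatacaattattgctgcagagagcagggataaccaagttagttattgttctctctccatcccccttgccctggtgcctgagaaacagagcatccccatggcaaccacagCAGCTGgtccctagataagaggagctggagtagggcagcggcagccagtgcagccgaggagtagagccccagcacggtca
Gabra6, chr10:27327235-27327484, minus strand: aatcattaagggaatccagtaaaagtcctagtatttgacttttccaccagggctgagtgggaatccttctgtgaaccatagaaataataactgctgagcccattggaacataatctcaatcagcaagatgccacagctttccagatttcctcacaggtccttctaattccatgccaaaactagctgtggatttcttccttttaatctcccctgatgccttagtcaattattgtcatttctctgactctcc
Itpr1, chr4:142743190-142743439, plus strand: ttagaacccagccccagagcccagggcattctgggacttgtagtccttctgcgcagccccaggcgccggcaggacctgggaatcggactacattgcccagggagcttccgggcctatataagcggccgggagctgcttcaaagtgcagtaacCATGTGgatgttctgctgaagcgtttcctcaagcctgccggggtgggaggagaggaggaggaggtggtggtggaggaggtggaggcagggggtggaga

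Of the 6 genes with an entry, AGGTCA was found for Pcp2 alone, starting 26 bases before the gene start, and 14.1% of 33469 rat promoters of this length hold it. CANNTG was found for Pcp2, Ppp1r17, Itpr1, Slc1a6 and Neurod1 and not for Gabra6, and 65.5% of promoters hold it. TATAAA was in none of the 6, against 12.9% of promoters. The share of G and C was 54.0% upstream of Pcp2, 51.6% for Ppp1r17, 41.2% for Gabra6, 62.0% for Itpr1, 76.4% for Slc1a6 and 69.2% for Neurod1, with a median of 51.2% over all promoters. A match describes these letters only.

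Pcp2, which encodes a G protein modulator of Purkinje cells, had signals of -0.51, -3.56 and -3.58 in SPORTS rats, against -3.75, -3.66 and -3.54 in wild type rats. SPORTS replicate 1 was high and the other 5 arrays lay within 0.21 of each other, so the groups overlapped. On that array Pcp2 was 8.41-fold above the median of the other 5, which was rank 21 of the 20657 tested probes in upward deviation. Both spots of the probe carried it, with processed signals of 1076 and 1146 on that array and between 108.4 and 147.6 on the others. The group difference, SPORTS minus wild type, was 1.10 ± 0.85 (SE) with all 6 arrays and 0.08 ± 0.07 without SPORTS replicate 1.

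Car8, which encodes a carbonic anhydrase-related protein that lowers the affinity of the inositol trisphosphate receptor for its ligand, had signals of 0.34, -1.47 and -1.43 in SPORTS rats, against -1.59, -1.45 and -1.45 in wild type rats. The pattern was that of Pcp2, with 1 high array and 5 within 0.16 of each other. The high array was 3.45-fold above the median of the others. The group difference was 0.64 ± 0.50 (SE), and 0.05 ± 0.06 without that array.

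Ppp1r17, the gene of a phosphatase inhibitor that is a substrate of cGMP-dependent kinase in Purkinje cells, had signals of -3.45, -6.34 and -5.67 in SPORTS rats, against -5.96, -5.00 and -5.23 in wild type rats. It was not well above background in SPORTS replicate 2, and the other 5 arrays spread over 1.34, far more than for Pcp2 or Car8. On SPORTS replicate 1 the signal was 4.65-fold above the median of the others. The group difference was 0.25 ± 0.76 (SE) with all arrays and -0.61 ± 0.36 without SPORTS replicate 1, so its sign rests on that array.

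Slc1a6 encodes the glutamate transporter EAAT4 of Purkinje cell dendrites and spines. Its signals were -2.13, -2.79 and -2.77 in SPORTS rats, against -3.05, -3.05 and -2.98 in wild type rats. All 3 SPORTS arrays lay above all 3 wild type arrays, and replicate 1 was the highest. The difference was 0.46 ± 0.18 (SE) over all arrays and 0.24 ± 0.04 without SPORTS replicate 1.

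Itpr1, the calcium release channel of the endoplasmic reticulum, showed another pattern on both probes. The brighter probe, A_64_P156632, had signals of 3.94, 3.80 and 3.74 in SPORTS rats, against 4.21, 4.02 and 4.20 in wild type rats. The other probe, A_64_P119637, had 0.29, 0.23 and 0.30 in SPORTS rats, against 0.85, 0.71 and 0.60 in wild type rats. On both probes the SPORTS arrays lay below the wild type arrays without overlap. SPORTS replicate 1 lay between the other SPORTS arrays on A_64_P119637. On the brighter probe it was the highest SPORTS array, at 3.94, and lay nearer to wild type replicate 2, at 4.02, than to the other SPORTS arrays. The differences were -0.32 ± 0.08 and -0.45 ± 0.07 (SE), which are 1.25-fold and 1.36-fold lower in SPORTS, and -0.38 ± 0.07 and -0.46 ± 0.08 without SPORTS replicate 1. The brighter probe lost its call in limma without any 1 of SPORTS replicates 2 and 3 and wild type replicates 1 and 3 (adjusted p between 0.0981 and 0.117), and its difference stayed between -0.38 and -0.28 over the alternatives that use this probe alone.

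Calb1, which encodes the calcium buffer calbindin and is strong in Purkinje cells and in many forebrain neurons, had signals of -0.55, -0.77 and -0.74 in SPORTS rats, against -0.59, -0.70 and -0.76 in wild type rats. The 6 arrays lay close together and the groups overlapped. Replicate 1 of the SPORTS group was 1.14-fold above the median of the others. The difference was -0.01 ± 0.08 (SE), and -0.08 ± 0.06 without that array.

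The other 4 genes are those of granule cells. Cbln1, which encodes a secreted protein that helps to hold parallel fibre synapses on Purkinje cells together, had signals of 0.34, -0.59 and -0.42 in SPORTS rats, against -1.03, -0.69 and -0.57 in wild type rats. SPORTS replicate 1 was high, at 1.90-fold above the median of the others, wild type replicate 1 was low, and the groups overlapped. The difference was 0.54 ± 0.26 (SE), and 0.26 ± 0.15 without SPORTS replicate 1.

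Cbln3, the cerebellin partner of Cbln1 in granule cells, had signals of -4.36, -4.86 and -4.83 in SPORTS rats, against -5.11, -5.06 and -5.14 in wild type rats. All SPORTS arrays were above all wild type arrays, also without replicate 1. The difference was 0.42 ± 0.14 (SE) over all arrays and 0.26 ± 0.04 without SPORTS replicate 1. The 2 spots of this dim probe differed by up to 0.54, which is more than that difference.

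Neurod1, a basic helix-loop-helix factor of granule neurons and of other excitatory neurons, had signals of -0.62, -1.38 and -1.37 in SPORTS rats, against -1.54, -1.74 and -1.65 in wild type rats. The groups did not overlap, and SPORTS replicate 1 was the highest, 1.89-fold above the median of the others. The difference was 0.52 ± 0.22 (SE), and 0.27 ± 0.07 without that array.

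Gabra6, which encodes the GABA-A receptor subunit alpha 6 that is largely restricted to cerebellar granule cells, was well above background on SPORTS replicate 1 alone. The 2 spots of its probe had processed signals of 329.6 and 314.4 there. In SPORTS replicate 2 they had 6.954 and 6.221 and in replicate 3 they had 4.663 and 73.06, against at most 7.673 in the wild type rats. The 2 spots of SPORTS replicate 3 thus disagreed, and only 1 of them was above background, which does not count as measured. On the mean of the probe's 2 spots, SPORTS replicate 1 was at least 11.3-fold above the highest of the other 5 arrays. In this bound an array's lowest signal above background takes the place of a dimmer value. It does not hold spot by spot, since 1 spot had 314.4 on SPORTS replicate 1 and 73.06 on SPORTS replicate 3. The group bound, which averages the 3 SPORTS arrays, was at least 1.84-fold higher in SPORTS with 1 of 3 SPORTS arrays measuring the gene. Gabra6 did not pass the filter on dim signal and was not tested.

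**Figure D1:**
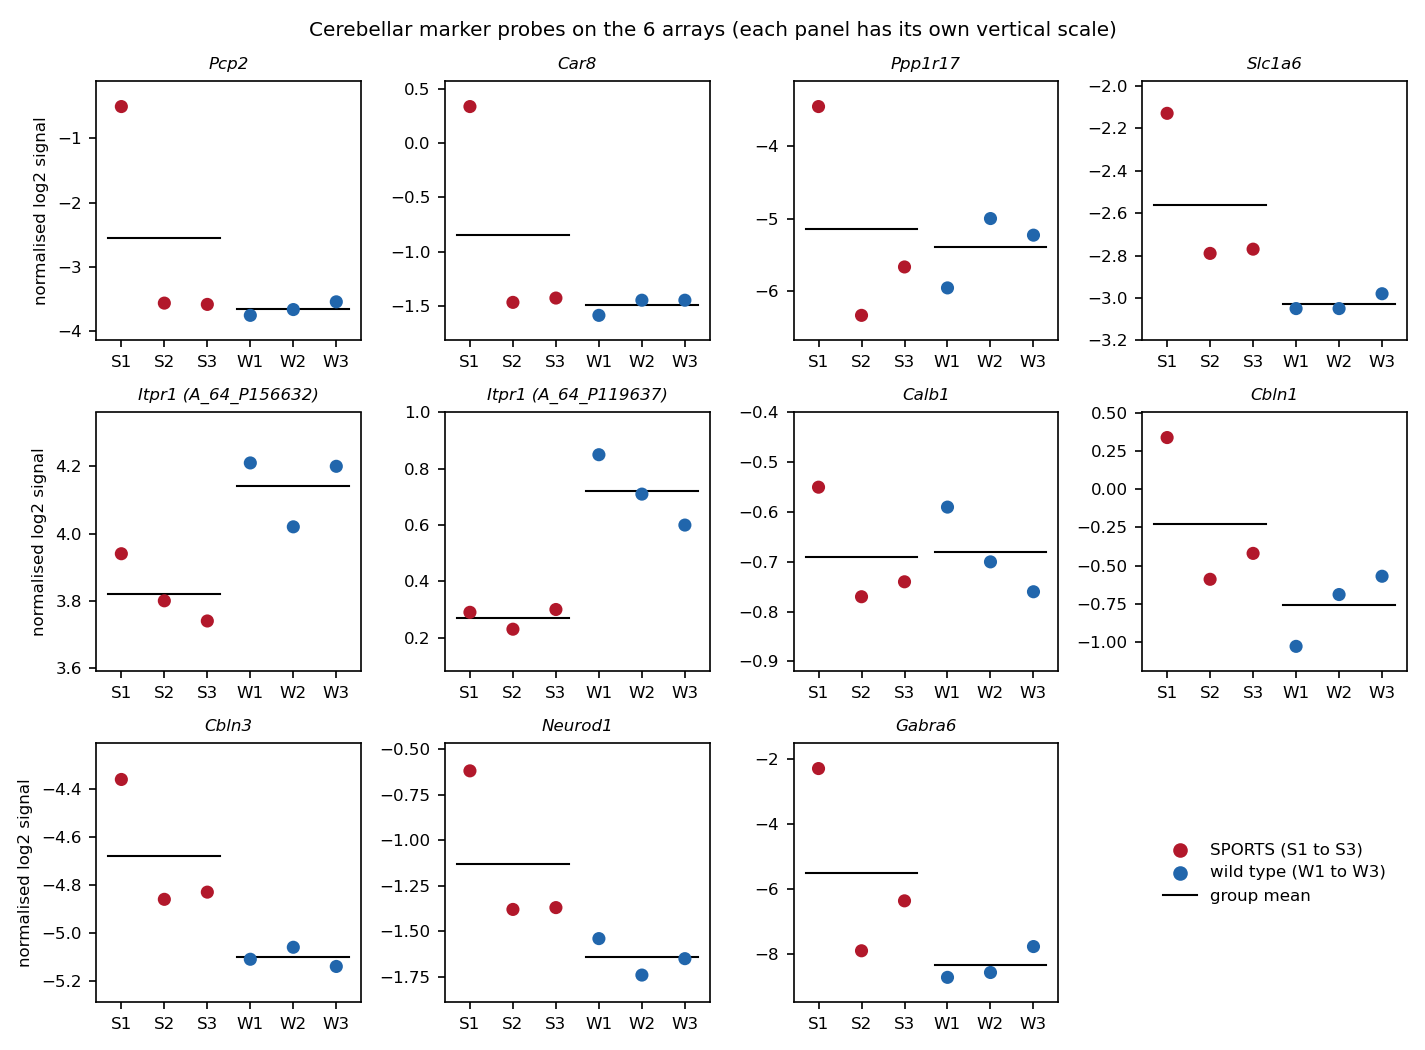
Normalised log2 signal (vertical axis, own scale in each panel) of the 11 cerebellar marker probes on each array, with 3 SPORTS rats left of 3 wild type rats and a line at each group mean. SPORTS replicate 1 is the highest array in 9 panels, among them Pcp2 at -0.51 and Gabra6 at -2.29, while both Itpr1 probes are lower in all SPORTS rats.

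Of the 11 probes, 9 were above background on all 6 arrays and 10 were tested. Where a probe had 2 spots and was measured on all arrays, the median gap between its spots was 0.091, against 0.072 over all 10605 such probes on the array. SPORTS replicate 1 was the highest array for 8 of the 10 tested probes, beside 21.4% of all tested probes, and it was more than 2-fold above the median of the others for 3 of 10, beside 1.18%. Since the genes were picked after this array was seen to be high on Pcp2 and Car8, these counts describe the choice as well as the array. Over the tested probes the median deviation of an array from the other 5 was 0.88, -0.03 and 0.00 in the SPORTS rats, against -0.17, -0.05 and 0.01 in the wild type rats.

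The genes followed each other across arrays to different degrees. The Pearson correlation of a gene with the mean of the other tested genes, over 6 arrays that share SPORTS replicate 1, was 0.997 for Car8, 0.991 for Pcp2, 0.929 for Slc1a6 and 0.914 for Cbln1. It was 0.899 for Neurod1, 0.882 for Cbln3, 0.857 for Ppp1r17, 0.621 for Calb1 and -0.191 for Itpr1. These values describe mainly how far 1 array lay from the others.

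The comparison of SPORTS with wild type asks whether cerebellar transcripts differ between the lines. In the limma fit over all 20657 tested probes with Benjamini-Hochberg adjustment and a threshold of 0.05, 0 of the 10 marker probes were called higher in SPORTS, beside 11.1% of all probes, and 2 had an unadjusted p under 0.05. The 2 Itpr1 probes were called lower, beside 10.1%. The groups did not overlap for 5 of 10 probes, with SPORTS above for Slc1a6, Cbln3 and Neurod1 and below for both Itpr1 probes, beside 21.4% and 20.5% of all probes. Without SPORTS replicate 1, Slc1a6 and Cbln3 were called higher, beside 6.84% of probes, and both Itpr1 probes lower, beside 6.83%. In the row-blocked fit none of the 10 was called and 2 had an unadjusted p under 0.05. The share of calls in that fit was taken over genes with 1 probe each, 8.34%, and not over probes. There the differences were 0.99 ± 1.31 for Pcp2, 0.41 ± 0.28 for Slc1a6, 0.45 ± 0.21 for Cbln3 and -0.37 ± 0.11 for the brighter Itpr1 probe (SE).

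Counted by gene, 0 of 9 tested genes were called higher and 1, Itpr1, lower, beside 24.3% of all genes called in either direction, and without SPORTS replicate 1 it was 2 higher and 1 lower, beside 16%. The median difference of the 9 was 0.46, beside 0.01 over all genes tested. Without SPORTS replicate 1 it was 0.08, so 1 array carries most of it. In bulk tissue, fewer cells of a type and less RNA per cell cannot be told apart. The p-values measure the spread between these rats, which the labels give as separate animals.

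**Figure D2:**
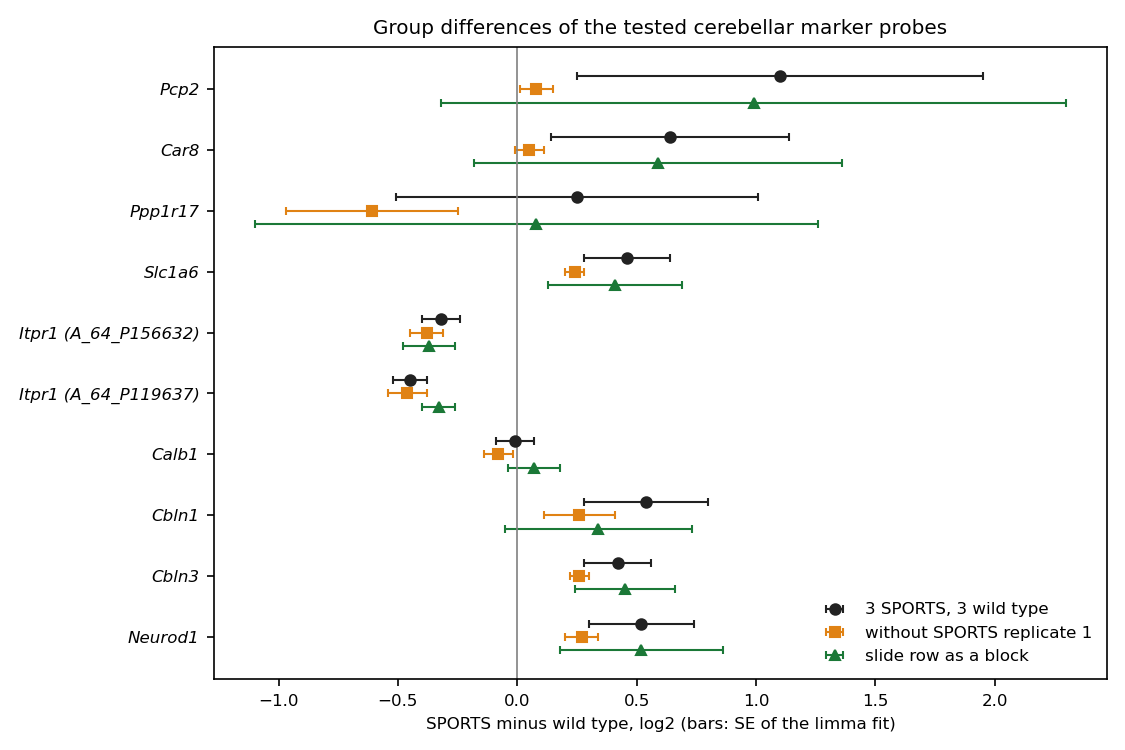
Group difference, SPORTS minus wild type on the log2 scale (horizontal axis), of the 10 tested marker probes with bars for the SE of the limma fit, over all arrays, without SPORTS replicate 1 and in the row-blocked fit. Pcp2 and Car8 are at 1.10 and 0.64 with wide bars over all arrays and at 0.08 and 0.05 without SPORTS replicate 1, while both Itpr1 probes stay below 0 in every fit drawn.

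Other genes of the cerebellar cortex were read from 3 wider lists of 42 genes, of which 34 were on the array and 32 were tested. Of these, 7 were called higher and 5 lower in SPORTS, beside 12.9% and 11.4% of all genes, and without SPORTS replicate 1 it was 4 and 3, beside 8.05% and 7.92%. Their median difference was 0.07, and 0.02 without that array. In the row-blocked fit 0 were called higher and 1 lower, beside 4.03% and 4.31%.

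Of 12 tested genes in the wider Purkinje cell list, 2 were called higher and 3 lower, beside 12.9% and 11.4% of all genes. Their median difference was 0.04. Lhx1, a homeobox gene of Purkinje cells and of many other neurons of the brainstem, had the largest difference of those called, at -3.28, -3.74 and -3.71 in SPORTS rats, against -6.08, -5.04 and -5.17 in wild type rats. Its difference of 1.85 ± 0.30 (SE, limma adjusted p = 0.0102) held without SPORTS replicate 1 (adjusted p = 0.0377). Wild type replicate 1 deviated by -2.33 from the median of the others, and without it the difference was 1.53 (adjusted p = 0.00852). The call of Lhx1 ended in the row-blocked fit (adjusted p = 0.102). Pcp4, a calmodulin regulator of Purkinje cells and striatum, fell by 0.51 ± 0.10 (adjusted p = 0.0211), and SPORTS replicate 1 was lowest there, at 1.98 against a range of 2.26 to 2.77 on the other arrays. Gng13, a G protein gamma subunit, fell by 0.23 ± 0.04 (adjusted p = 0.0173), and Rgs8, a regulator of G protein signalling, fell by 0.36 ± 0.09 (adjusted p = 0.0433). Both lost their call without SPORTS replicate 1 (adjusted p = 0.0501 and 0.113). Single other arrays also decided calls: Gng13 rested on SPORTS replicates 2 and 3, Rgs8 on SPORTS replicate 3 and all 3 wild type arrays, and Pcp4 on SPORTS replicate 2 and all 3 wild type arrays (adjusted p between 0.0565 and 0.119 without any 1 of them). Lhx5, a homeobox gene of developing Purkinje cells, was measured on 1 wild type array and did not pass, at 0.58 ± 0.60.

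The median deviation of SPORTS replicate 1 over the wider Purkinje cell list was 0.01, against 1.32 over the 6 Purkinje cell genes described above. That array was the highest of the 6 for 4 of the 12 tested genes of the wider list and the lowest for 1.

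Of 10 tested genes in the wider granule cell list, 2 were called higher and 1 lower, beside 12.9% and 11.4% of all genes. Their median difference was 0.11. Gabrd, the GABA-A receptor delta subunit that pairs with alpha 6 in granule cells and with alpha 4 in the forebrain, had 1.41, 1.49 and 1.47 in SPORTS rats, against 1.92, 1.84 and 1.87 in wild type rats. It fell by 0.42 ± 0.04 (adjusted p = 0.00198) and kept its call in the row-blocked fit (adjusted p = 0.0279) and without SPORTS replicate 1 (adjusted p = 0.00965). Mab21l1, a developmental gene, rose by 1.20 ± 0.27 (adjusted p = 0.0284) on the probe measured in all rats. Its other probe was above background in SPORTS rats alone and passed the filter through them, with a bound of at least 1.67-fold higher in SPORTS. Barhl1, a homeobox gene of granule cells, had -4.87, -5.39 and -5.26 in SPORTS rats, against -8.18, -6.03 and -7.45 in wild type rats, where it was above background on 1 array. It passed the filter through the SPORTS rats and was called higher (adjusted p = 0.0463), but its size is uncertain, at 2.04 ± 0.54 here and 0.45 with normexp background correction. Wild type replicate 1 deviated by -1.38 for Mab21l1 and -2.79 for Barhl1, and without it their differences were 0.96 and 1.56. The calls of Mab21l1 and Barhl1 ended without SPORTS replicate 1 (adjusted p = 0.0682 and 0.127). They also ended without SPORTS replicate 2 or wild type replicates 1 or 3 for both, without wild type replicate 2 for Mab21l1 and without SPORTS replicate 3 for Barhl1 (adjusted p between 0.0519 and 0.132).

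Fat2, a cadherin gene of granule cells, showed the pattern of Gabra6 on 1 of its 2 probes. Its probe A_42_P550241 had -4.21, -8.00 and -7.35 in SPORTS rats, against -8.34, -8.14 and -7.82 in wild type rats, and was above background on SPORTS replicate 1 alone, at least 3-fold above the highest of the other 5. Its other probe, A_64_P065600, deviated by 0.00 on SPORTS replicate 1, was highest in wild type replicate 3 and was above background on 1 array, a SPORTS array other than replicate 1. En2, a homeobox gene of the cerebellum, was above background on 0 of 6 arrays.

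Of 10 tested genes of other cerebellar neurons and of Bergmann glia, the astrocytes of the Purkinje cell layer, 3 were called higher and 1 lower. Of all genes, 12.9% were called higher and 11.4% lower. The median difference of the 10 was 0.08. Fabp7, a fatty acid binding protein of Bergmann and other radial glia, rose by 0.35 ± 0.05 (adjusted p = 0.00804). Tfap2b, a transcription factor of molecular layer interneurons that is also active in the brainstem, rose by 1.07 ± 0.21 (adjusted p = 0.0193), and Kit, a receptor of those interneurons, by 0.52 ± 0.11 (adjusted p = 0.0224). Etv5, a transcription factor gene, fell by 0.27 ± 0.04 (adjusted p = 0.0109). Of these 4, Tfap2b lost its call without any 1 of the SPORTS arrays (adjusted p between 0.0507 and 0.0643) and Kit without SPORTS replicate 2 or wild type replicates 2 or 3 (adjusted p between 0.0503 and 0.0777), and all 4 lost it in the row-blocked fit (adjusted p between 0.0827 and 0.164). Wild type replicate 1 deviated by -1.38 for Tfap2b, whose difference was 0.85 without it (adjusted p = 0.0199). General glial markers differed in the same direction as Fabp7, with 3 of 5 astrocyte genes (Aqp4, Aldh1l1 and S100b) and 2 of 5 oligodendrocyte genes called higher, beside 12.9% of all genes, and 0 lower. Counted by the brightest probe of each gene, these calls ended in the row-blocked fit. There the median difference was 0.26 for astrocyte and 0.1 for oligodendrocyte genes. The dimmer Aqp4 probes A_64_P036063 and A_64_P018751 kept their calls in that fit, at 0.53 ± 0.05 and 0.41 ± 0.06 (SE). Hopx and Slc1a3, of the same list as Fabp7, were not higher in SPORTS. Hopx did not pass, at -0.18 ± 0.05. Slc1a3 was at -0.01 ± 0.04 on its brighter probe, and its other probe was called lower, at -0.19 ± 0.04 (adjusted p = 0.0265). The mean centred signal of the astrocyte genes was 0.16, 0.09 and 0.21 in SPORTS rats, against -0.23, -0.13 and -0.10 in wild type rats. Of 5 pan-neuronal genes 1 was called higher and 2 lower, beside 12.9% and 11.4% of all genes. The part of the glial and neuronal shifts in the Fabp7 difference was not tested. Gdf10, a secreted factor of Bergmann glia, was 0.50 above the other arrays on SPORTS replicate 1 and did not pass, at 0.20 ± 0.14. Pax2, a marker of immature inhibitory interneurons, did not pass at -0.18 ± 0.18.

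The cerebellin family has 4 genes. Besides Cbln1 and Cbln3, Cbln2, which is widely used in the forebrain, fell by 0.21 ± 0.05 (adjusted p = 0.0381), a call that ended without any 1 of the 6 arrays, and Cbln4 did not pass, at 0.03 ± 0.14. On SPORTS replicate 1 Cbln2 and Cbln4 were 0.20 and 0.29 below the median of the others, whereas Cbln1 and Cbln3 were 0.93 and 0.69 above.

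Markers of regions near the cerebellum and of the ventricles stood apart on the same array. Of 18 genes of locus coeruleus, raphe and hindbrain, 14 were on the array and 9 were tested, which were highest in SPORTS replicate 1 on average. The mean centred signal of these 9 was 0.92, 0.19 and 0.07 in the SPORTS rats, against -0.57, -0.33 and -0.27 in the wild type rats. Dbh, the enzyme that makes noradrenaline, had -1.55, -6.25 and -5.87 in SPORTS rats, against -5.28, -5.50 and -5.08 in wild type rats. The noradrenaline transporter gene Slc6a2 had -1.77, -3.49 and -4.09 in SPORTS rats, against -4.06, -4.47 and -4.20 in wild type rats, and its other probe was above background on SPORTS replicate 1 alone. Both genes were high on SPORTS replicate 1, as Pcp2 was. The difference of Dbh was 0.73 ± 1.25 (SE) over all arrays, and -0.78 without SPORTS replicate 1 (adjusted p = 0.0490). Dbh was not well above background on SPORTS replicate 2, so the size of the latter difference is uncertain.

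Other hindbrain genes were higher in all SPORTS rats. Slc6a5, a glycine transporter gene of brainstem and cerebellar inhibitory neurons, rose by 1.17 ± 0.18 (adjusted p = 0.00897), and Tph2, the serotonin synthesis enzyme of the raphe, by 1.48 ± 0.23 (adjusted p = 0.00888). Both kept their call without SPORTS replicate 1 (adjusted p = 0.00717 and 0.00474) and lost it in the row-blocked fit (adjusted p = 0.0863 and 0.0592). The serotonin transporter gene Slc6a4 was above background on no wild type array and did not pass (adjusted p = 0.0576). The other 5 genes of the list on the array, Phox2a, Hoxa2, Hoxb3, Hoxc4 and Fev, were above background on none of the 6 arrays.

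Choroid plexus genes were low on the same array. Ttr, the transthyretin gene, had 6.06, 6.98 and 7.16 in SPORTS rats, against 7.07, 7.02 and 7.11 in wild type rats. Of 5 tested choroid plexus genes, 4 were over 2-fold below the median of the other arrays on SPORTS replicate 1, beside 0.818% of all probes, with deviations of -1.01 for Ttr, -1.20 for Folr1, -1.47 for Clic6 and -2.12 for Kl. The value of Kl is a bound, since it was not well above background on that array. Their mean centred signal was -0.98, 0.13 and 0.35 in SPORTS rats, against 0.13, 0.14 and 0.22 in wild type rats. The part of hindbrain or choroid plexus content in the cerebellar values was not tested.

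For forebrain and general neuronal lists, the median deviation of SPORTS replicate 1 was -0.03 for 8 cortex and hippocampus genes and -0.11 for 5 pan-neuronal genes. The 4 thalamus genes went both ways on that array, from -0.74 for Prkcd, a kinase gene of thalamic relay neurons, to 0.50 for Slc17a6, a vesicular glutamate transporter gene. Their mean centred signal was -0.12, 0.20 and 0.38 in SPORTS rats, against -0.18, -0.05 and -0.23 in wild type rats. All 8 striatum genes were called lower in SPORTS, beside 11.4% of all genes, with a mean centred signal of -1.26, -0.93 and -0.99 in SPORTS rats, against 1.17, 0.98 and 1.02 in wild type rats. Astrocyte genes deviated alike in all SPORTS rats, by a median of 0.26, 0.21 and 0.30, against -0.23, -0.20 and -0.23 in wild type rats, and oligodendrocyte genes by 0.14, 0.06 and 0.04, against -0.23, -0.14 and -0.10.

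**Figure D3:**
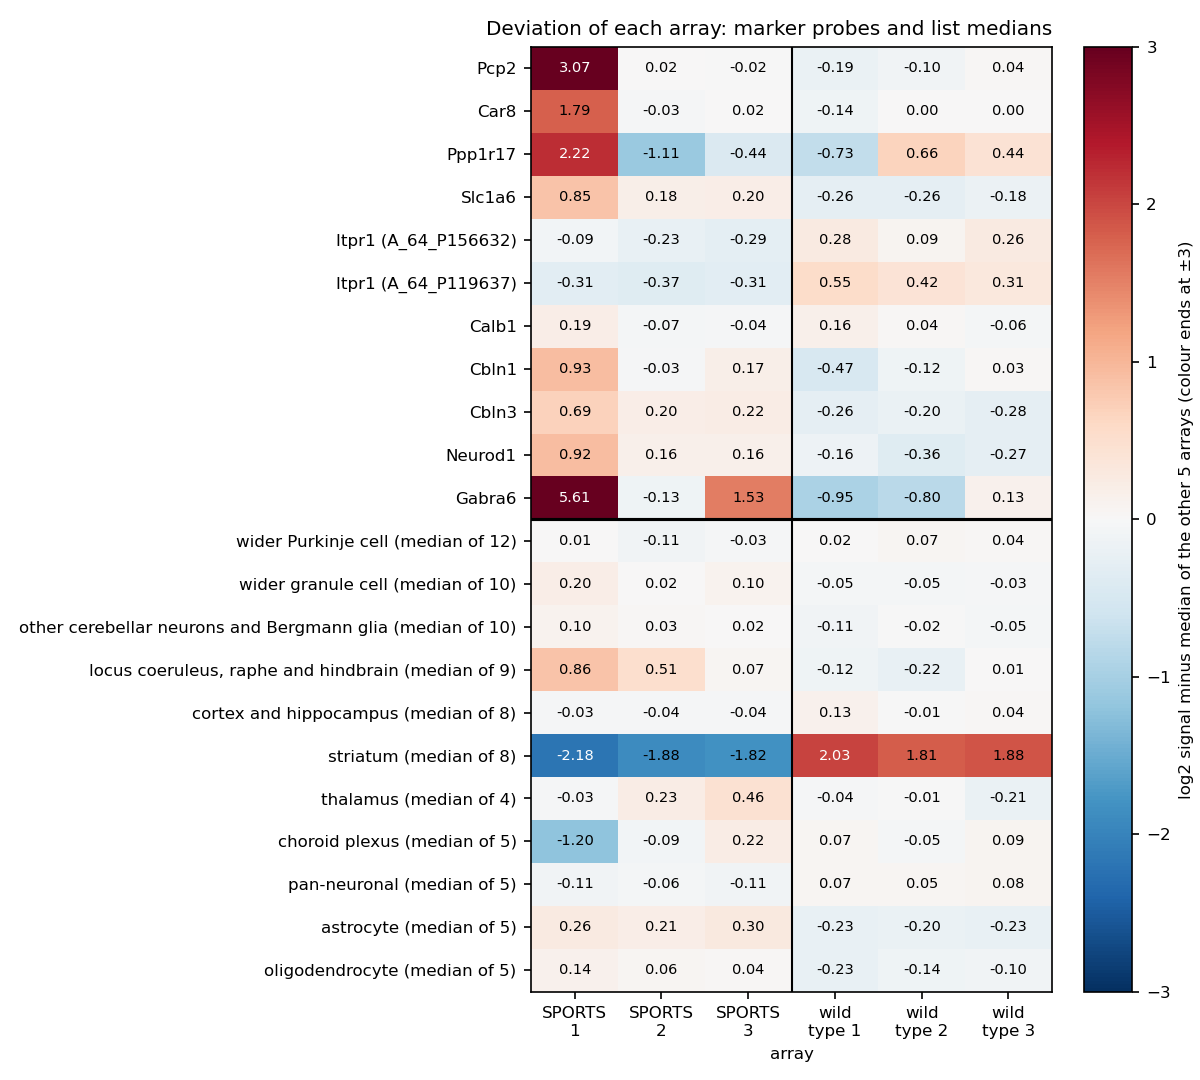
Deviation of each array from the median of the other 5 arrays on the log2 scale (colour and number), for the 11 marker probes above the black line and for the medians of the lists below it, with SPORTS rats left of wild type rats. SPORTS replicate 1 is 3.07 up for Pcp2 and 5.61 up for Gabra6, whose other arrays are below background, and 1.20 down for the choroid plexus median.

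**Figure D4:**
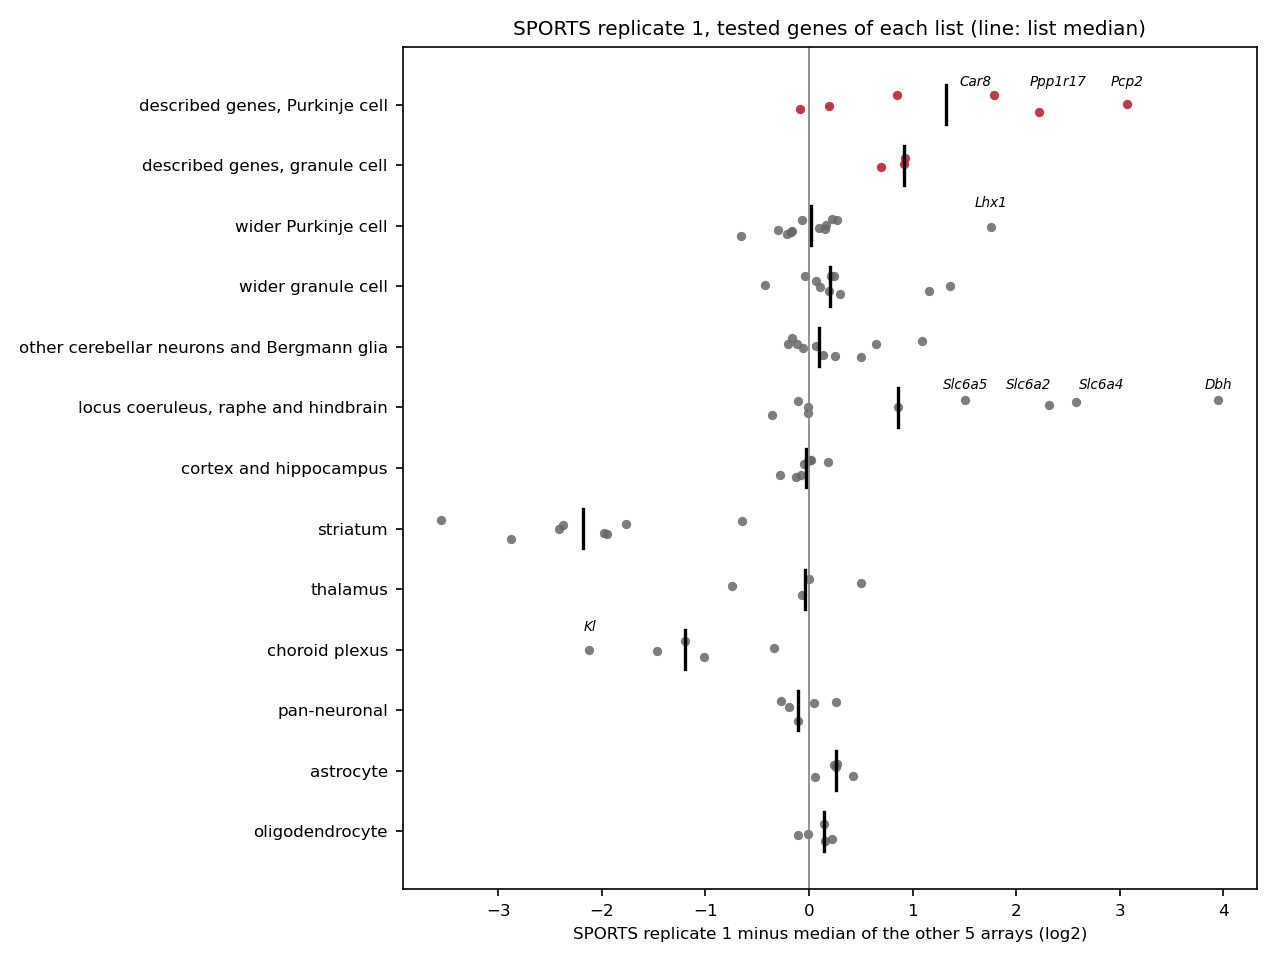
Deviation of SPORTS replicate 1 from the median of the other 5 arrays (horizontal axis, log2) for each tested gene of each list, with a line at the list median. The described Purkinje cell genes have a median of 1.32 and the wider Purkinje cell list one of 0.01, where Lhx1 is the outlying point at 1.76.

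Genes with a pattern most like the mean of the marker genes were sought among 540 other named genes that were above background on all 6 arrays and ranged over at least 1 log2 unit. The 10 highest Pearson correlations over the 6 arrays were 0.978 to 0.995, and all 10 genes were high on SPORTS replicate 1. Cenpc, which encodes a centromere protein, was closest at 0.995, with -1.84, -3.77 and -3.75 in SPORTS rats, against -3.87, -3.87 and -3.75 in wild type rats. The others were Racgap1, Ccdc175, Ttc8, C10h17orf107, Abcc6, Det1, Clpsl2, Galnt6 and Lipt1. Galnt6, a glycosyltransferase gene, had the highest deviation of the 10, at -0.70, -3.85 and -4.08 in SPORTS rats, against -4.13, -3.90 and -4.33 in wild type rats. None of the 10 was called between the groups by limma (adjusted p between 0.291 and 0.671). With 6 arrays of which 1 lies apart, such correlations describe that array.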

How the data were processed

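Total RNA of 6 rat brains was labelled with Cy3, per the labels' protocols, and hybridised to 1 array each. Per the file headers, the deposited intensity values come from Agilent Feature Extraction, version 10.10.1.1 in the submitters' processing notes, which subtracted background and detrended within each array, with no scaling between arrays. The authors' table of the whole series multiplies these intensities by 1 factor per array, between 1.38 and 1.47, on a linear scale without centring. It has column medians of 394, 384 and 389 for SPORTS and 376, 376 and 382 for wild type and 0 columns of other samples. The choice of factors is not stated in the labels or headers.

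Of 62976 spots, 58717 were not controls and carried 30367 probes. After removal of 3075 spot values flagged as outliers (0 were saturated), the log2 values of a probe's spots were averaged, and each array's 75th percentile over its non-control spots, 1530 to 1628 in processed signal, was subtracted. Testing required over 0.5 of a probe's spots well above background on each array of 1 group or both. This left 20657 probes, 13089 of them named and standing for 11032 genes. The scanner files name transcripts by accession, which was matched without its version to RefSeq genes of GRCr8. The array was designed on another build, so no gene positions are given. A gene counts by its brightest tested probe. Files were read with the R package data.table (1.17.8). SPORTS was compared with wild type in limma 3.58.1 under R 4.3.3, two-sided, with Benjamini-Hochberg adjustment over all tested probes and a threshold of 0.05. The script was tested on simulated data. SE is that of the fit and SD is over 3 arrays.

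The genes described and all lists were chosen with earlier results of these data known. Genes were named by a rule: all marker genes with every probe, then per wider list and the hindbrain list up to 4 called genes with the smallest adjusted p and up to 4 with the largest deviation of 1 array, and the 10 genes of highest likeness. Cbln2, Cbln4, Hopx, Slc1a3, the choroid plexus, thalamus and astrocyte genes and hindbrain genes below background were named after their values were seen. The values of some listed genes are not reported here. The alternatives tried were a median shift, quantile normalisation, normexp (offset 50, on the median spot brightness), the authors' table, other filters on dim probes, outlier spots kept, a trended and robust variance, the mean of a gene's probes, slide row as a blocking term, row 2 alone and leaving out each array.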

Additional observations from a re-analysis of the deposited data

How the results depend on the processing

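No paired analysis was possible because the numbers in the sample titles overlap between the groups for 1 number only. Over the 17 alternatives the median difference of the marker genes stayed above 0, from 0.08 to 0.65, lowest without SPORTS replicate 1, and the median deviation of that array over them was 0.84 to 0.92 in the 8 settings in which it was computed. No marker gene was called higher in 16 of 17 alternatives, and 2, Slc1a6 and Cbln3, were without SPORTS replicate 1 (0 to 2 over the arrays left out). The call of Itpr1 as lower was lost, leaving 0 genes called lower, without the filter on dim probes (adjusted p = 0.0917), in the row-blocked fit (adjusted p = 0.126) and inside row 2 (adjusted p = 0.128), and 0 to 1 were called over the arrays left out.

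The 7 wider cerebellar genes called higher became 2 without the filter, 0 with the slide row block, 3 within row 2 and 2 to 5 over the arrays left out. The 5 called lower became 8 with quantile normalisation and with a median shift, 2 without the filter, 1 with the block, 1 within row 2 and 3 to 4 over the arrays left out. The difference of Calb1, -0.01, was 0.07 with the block and within row 2, 0.03 and 0.02 without SPORTS replicates 2 and 3 and 0.04 without wild type replicate 1, and it ran from -0.08 to 0.04 over the arrays left out. That of Ppp1r17, 0.25, was -0.61 without SPORTS replicate 1 and -0.04 without wild type replicate 1. Of all genes, 1424 were called higher and 1257 lower in SPORTS, against 1213 and 1600 with a median shift, 768 and 676 without the filter, 445 and 475 with the block, 315 and 322 within row 2, and 796 to 1002 and 613 to 927 over the arrays left out. The cause of these changes was not tested. Requiring signal on all 6 arrays leaves Ppp1r17 out, and dim signal limits the values of Gabra6, Fat2, Ppp1r17, Dbh and Kl. Groups of 3 arrays are too small for the outlier statistic, so no single array was flagged by it.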
